A study of Mus musculus with 6 samples.

Results

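The 7 mouse fatty acid elongases, Elovl1 to Elovl7, were examined in RNA-seq libraries of neonatal dermal fibroblasts cultured for 14 days in adipocyte differentiation medium. Members were taken by gene symbol, and all 7 were among the 17924 genes of the table and passed the filter on low values, which left 16251 genes tested. The study asked how loss of Nelfb, a subunit of the negative elongation factor that holds RNA polymerase II near promoters, changes gene expression during adipocyte differentiation. Fibroblasts came from the dorsal dermis of newborn (P0) C57BL/6J mice. The 3 CTL libraries were from Pdgfra-Cre+ cells whose Nelfb genotype was either fl/wt or wt/wt, and which of these a given CTL library carried is not stated in the sources used here. The 3 Nelfb-/- libraries, labelled KO, were from Nelfb fl/fl Pdgfra-Cre+ cells. Both groups therefore carried Pdgfra-Cre, a recombinase under the promoter of a receptor of mesenchymal cells, so that cells outside that lineage keep Nelfb. The groups were biological triplicates, and whether animals were pooled is not stated in the sources used here.

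Elongases catalyse the first and rate-limiting step of the fatty acid elongation cycle in the endoplasmic reticulum, in which a fatty acyl-CoA is condensed with malonyl-CoA and grows by a pair of carbons. The members differ in substrate. Elovl6 turns palmitate, the product of fatty acid synthase, into stearate. Elovl1, Elovl3 and Elovl7 extend saturated and monounsaturated acyl chains, Elovl2 and Elovl5 extend polyunsaturated chains, and Elovl4 makes chains of very great length used in skin, retina and brain. In fat, Elovl3 is best known from brown adipocytes and from sebaceous glands of the skin, and Elovl6 from lipogenic white adipocytes.

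The elongase genes lie apart in the mouse genome (GRCm38/mm10). Elovl1 (ENSMUSG00000006390) is at chr4:118428093-118432953 on the plus strand, Elovl2 (ENSMUSG00000021364) at chr13:41182381-41220405 on the minus strand and Elovl3 (ENSMUSG00000038754) at chr19:46131897-46135694 on the plus strand. Elovl4 (ENSMUSG00000032262) is at chr9:83778692-83806277 on the minus strand, and Elovl5 (ENSMUSG00000032349) at chr9:77917364-77984519 on the plus strand, 5.79 Mb away. Elovl6 (ENSMUSG00000041220) is at chr3:129532355-129638495 and Elovl7 (ENSMUSG00000021696) at chr13:108214404-108285683, both on the plus strand. The genes span from 3.80 kb for Elovl3 to 106.1 kb for Elovl6, and their merged exons add up to between 1.98 kb (Elovl3) and 6.43 kb (Elovl6). A gene on the opposite strand shared exon bases with Elovl1 (Cdc20, 1.94% of Elovl1's exon bases), with Elovl3 (Pitx3, 0.506%) and with Elovl6 (Gm35986, 0.529%). Without the strand setting of the counting, reads in those bases cannot be assigned to one gene.

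The 250 bases upstream of the RefSeq start (GRCm38.p6) were read for 6 of the 7 members, Elovl3 having no entry. Those of Elovl2, Elovl4 and Elovl5 are shown because these members were, in turn, the one that rose, the one that fell and the one with the log2 fold change closest to 0. Capitals mark matches on either strand to the GC box, the CCAAT box or the TATA box, and the start site follows the last base. The GC box was searched as GGGCGG, the next motif by the letters CCAAT and the TATA box by the letters TATAAA. A match on the opposite strand appears as the reverse complement.
Elovl2, chr13:41220404-41220653, minus strand: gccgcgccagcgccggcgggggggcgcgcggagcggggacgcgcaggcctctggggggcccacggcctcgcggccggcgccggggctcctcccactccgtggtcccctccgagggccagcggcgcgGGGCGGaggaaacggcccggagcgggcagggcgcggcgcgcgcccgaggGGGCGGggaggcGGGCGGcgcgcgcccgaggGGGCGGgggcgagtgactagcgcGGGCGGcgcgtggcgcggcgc
Elovl4, chr9:83806306-83806555, minus strand: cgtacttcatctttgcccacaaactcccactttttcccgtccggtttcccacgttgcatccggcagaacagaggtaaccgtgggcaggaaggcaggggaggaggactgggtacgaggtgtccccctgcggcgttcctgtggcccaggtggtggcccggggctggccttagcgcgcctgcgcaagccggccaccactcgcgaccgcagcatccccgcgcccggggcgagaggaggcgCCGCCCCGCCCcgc
Elovl5, chr9:77917115-77917364, plus strand: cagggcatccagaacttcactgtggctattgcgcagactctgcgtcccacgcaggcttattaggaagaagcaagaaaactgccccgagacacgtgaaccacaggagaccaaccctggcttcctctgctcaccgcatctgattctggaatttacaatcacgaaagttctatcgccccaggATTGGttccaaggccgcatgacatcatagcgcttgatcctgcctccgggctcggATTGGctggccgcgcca
RefSeq lists 2 starts for Elovl2, and the window shown lies before the farther upstream of them. It was 87.2% G and C and held 5 GC boxes, at 124, 75, 63, 44 and 21 bases before the start. The window of the other Elovl2 start, chr13:41220163-41220412, was 79.6% G and C and held none of the 3 motifs. The Elovl4 window was 69.6% G and C and held 2 GC boxes that share a base, at 14 and 9 bases before the start. The Elovl5 window, at 55.6% G and C, held no GC box and 2 CCAAT boxes, at 71 and 17 bases before the start. The median over the 32851 promoters of the table was 52.4%. Among those promoters 32.7% held a GC box, 33.8% a CCAAT box and 12.4% a TATA box, which had no match in any of the 8 elongase entries. A match describes the letters of the window and not the binding of a factor.

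Values are CPM, gene counts scaled to a library total of 1000000, and carry no correction for gene length. The depth recovered from the step between the lowest values was 17.2 to 29.4 M reads per library (M standing for 1000000), so that 3 reads, taken as the floor of detection, correspond to 0.102 to 0.175 CPM. Differences were tested with limma on log2 values over all genes, and a gene was called at a Benjamini-Hochberg adjusted p of at most 0.05 with a change of at least 2-fold. By this rule 1824 genes were called (11.2% of those tested), 1232 higher in Nelfb-/- cells (7.58%) and 592 lower (3.64%). At an unadjusted p under 0.05 stood 32.5% of all genes, 19.6% higher and 12.9% lower in Nelfb-/- cells. The median log2 fold change over all genes tested was 0.068. Nelfb itself was at 17.3, 19.6 and 22.3 CPM in the CTL libraries and at 5.50, 3.90 and 5.55 CPM in the Nelfb-/- libraries (log2 fold change -1.99, SE 0.22, adjusted p = 0.0050 by limma), so the levels matched the labels. All 8 adipocyte markers were detected in every library and none was called by limma (0 with voom weights), where 11.2% of all genes were called. At an unadjusted p under 0.05 (limma) stood 3 of them, all lower in Nelfb-/- cells, where 12.9% of all genes were lower. Of the 8, 7 had a log2 fold change below 0 (median -0.91), where 7384 of all 16251 genes did. Lower without overlap between groups were 2 (Plin1 and Fabp4), where 16.1% of all genes were. The summed level of the 8 markers was 23740 to 40640 CPM in CTL, against 16010 to 24200 CPM in Nelfb-/- cells. The third CTL library was lowest in its group and the first Nelfb-/- library lowest in its own. In bulk RNA fewer cells of a type and less RNA per cell cannot be told apart.

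Of the 7 elongases, 1 rose (Elovl2), 1 fell (Elovl4) and 5 were not called, so 2 of 7 were called where 11.2% of all genes were. The groups did not overlap for 3 of the 7 members (Elovl2 higher, Elovl3 and Elovl4 lower in Nelfb-/- cells), against 38.1% of all genes tested (22% of all genes higher and 16.1% of all genes lower). The median log2 fold change over the members was 0.0093. With so few members, neither count sets the family apart from all genes. The family did not move one way: 4 log2 fold changes were above 0 and 3 below it, with Elovl5 passing from above to below 0 under other scalings.

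**Figure D1:**
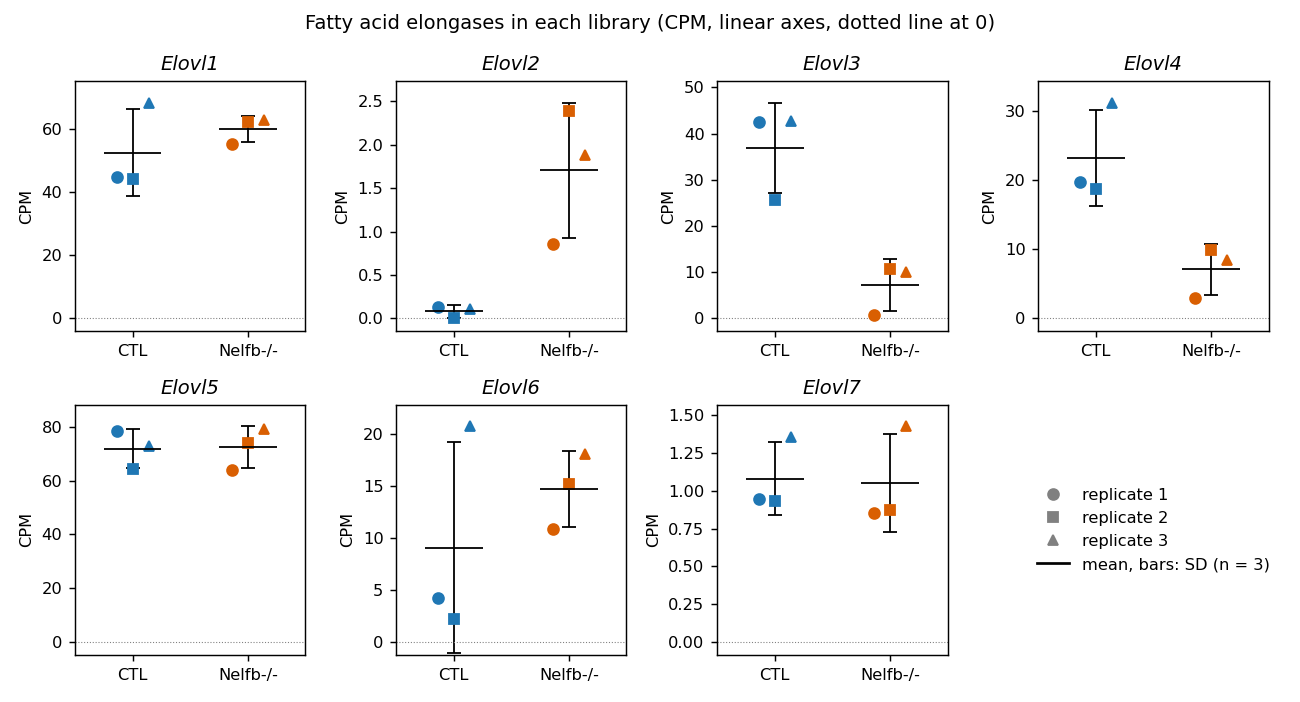
Each panel plots 1 elongase in CPM on a linear axis, with the 3 CTL libraries in blue and the 3 Nelfb-/- libraries in orange; lines mark the mean and bars the SD (n = 3). The groups separate for Elovl2, Elovl3 and Elovl4 and overlap for the other 4, and the third CTL library (20.8 CPM) stands far above the other CTL libraries for Elovl6.

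Elovl3, which extends saturated and monounsaturated chains, had the lowest log2 fold change of the family, but it did not pass the test. Its levels were 42.5, 25.7 and 42.6 CPM in the CTL libraries, against 0.759, 10.7 and 10.1 CPM in Nelfb-/- libraries. Every Nelfb-/- library was below every CTL library, and the first Nelfb-/- library was 13.7-fold below the mean of the other two. The group means were 37.0 ± 9.74 CPM and 7.18 ± 5.57 CPM (SD, n = 3 each), a ratio of means of 5.15. The log2 fold change was -3.02 (SE 0.99, 95% interval -5.39 to -0.65, adjusted p = 0.087 by limma). Without the first Nelfb-/- library it was -1.79 with an adjusted p of 0.016 by limma, a call. That library also had the highest macrophage marker sum of its group, 1960 CPM against 681.6 and 1132 CPM in the other Nelfb-/- libraries. The part of cell composition in the Elovl3 values was not tested. Elovl3 is among the genes the study named from these same samples, so its direction here is not independent evidence.

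Elovl4, the elongase of the longest chains, fell in Nelfb-/- cells. It was at 19.8, 18.8 and 31.3 CPM in the CTL libraries, against 2.94, 9.95 and 8.40 CPM in Nelfb-/- libraries. The groups did not overlap, and the first Nelfb-/- library was again the lowest. The means were 23.3 ± 6.94 CPM and 7.10 ± 3.68 CPM (SD, n = 3 each), 3.28-fold apart. The log2 fold change was -1.85 (SE 0.48, 95% interval -3.004 to -0.69, adjusted p = 0.048 by limma). The call was close to the threshold: it was lost when any library other than the first Nelfb-/- library was left out, with log2 fold changes from -2.18 to -1.61 and adjusted p between 0.063 and 0.12. Without the first Nelfb-/- library the log2 fold change was -1.30 (adjusted p = 0.030).

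Brown adipocyte and sebocyte markers were read beside both genes. Of 6 brown adipocyte markers tested, 3 fell (Cidea, Cox7a1 and Cox8b), where 3.64% of all genes did, and 3 were not called (log2 fold changes of 1.25 for Dio2, 0.16 for Prdm16 and -0.99 for Ppargc1a). Dio2 was higher in Nelfb-/- cells at an unadjusted p under 0.05, and the list's summed level was 34.0 to 69.8 CPM in CTL, against 15.4 to 21.9 CPM in Nelfb-/- cells. Cidea, at 7.234 to 10.96 CPM in CTL, was at or below 0.058 CPM in every Nelfb-/- library, and Ucp1 was not analysed here. Cidea and Cox8b passed the filter on low values only through the CTL libraries, so the count of brown adipocyte markers that fell is a description and no support. Of 5 sebocyte markers tested, 2 fell (Mc5r and Far2, where 3.64% of all genes fell). Between the groups 3 did not overlap (Mc5r, Far2 and Krt79, all lower in Nelfb-/- cells, where 16.1% of all genes were lower without overlap), and 4 had a log2 fold change below 0. The summed level overlapped at 108.8 to 145.3 CPM in CTL, against 88.6 to 246.7 CPM in Nelfb-/- cells. More than any other marker Soat1 made up that sum, at 72.3, 70.1 and 70.6 CPM in the CTL libraries, against 219.0, 72.0 and 80.3 CPM in the Nelfb-/- ones, while Mc5r was at 56.01, 52.55 and 24.96 CPM in CTL and at 21.01, 8.44 and 9.59 CPM in Nelfb-/- libraries. The part of brown adipocytes or sebocytes in the Elovl3 and Elovl4 values was not tested. Set against the adipocyte markers, Elovl3 was at 10.5, 6.93 and 18.0 CPM per 10000 CPM of summed marker in CTL and at 0.474, 4.43 and 4.96 in Nelfb-/- libraries. Elovl4 on the same scale was at 4.86, 5.07 and 13.2 in CTL and at 1.84, 4.11 and 4.13 in Nelfb-/- libraries. Neither gene overlapped between groups on this scale, though for Elovl4 the nearest values were 4.86 in CTL and 4.13 in Nelfb-/- libraries. The share of all genes without overlap on this scale was not computed. The part of adipocyte content in the Elovl3 and Elovl4 values was not tested.

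Elovl1, the broadly expressed elongase that supplies saturated chains for sphingolipids, was at 44.7, 44.2 and 68.3 CPM in the CTL libraries, against 55.2, 62.1 and 62.8 CPM in Nelfb-/- libraries. The Nelfb-/- values lay within the CTL range, which the third CTL library widened. The means were 52.4 ± 13.8 CPM and 60.1 ± 4.19 CPM (SD, n = 3 each), with a log2 fold change of 0.22 (SE 0.20, adjusted p = 0.48 by limma). The 95% interval of the difference ran from 0.839-fold to 1.63-fold, so that a 2-fold change in either direction lay outside it. Without the third CTL library the log2 fold change was 0.43 (adjusted p = 0.058).

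Elovl7, a further elongase of saturated chains, was low in every library. Its values of 0.947, 0.933 and 1.36 CPM in CTL, against 0.853, 0.873 and 1.43 CPM in Nelfb-/- libraries correspond to 15 to 40 reads. The groups overlapped throughout, and the log2 fold change was -0.056 (SE 0.36, adjusted p = 0.94 by limma). At this depth the 95% interval, 0.529-fold to 1.75-fold, leaves room for a change close to 2-fold in the lower direction.

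Elovl6, which makes stearate from palmitate, varied more among the CTL libraries than between the groups. It was at 4.24, 2.24 and 20.8 CPM in the CTL libraries, against 10.9, 15.3 and 18.2 CPM in Nelfb-/- libraries. The third CTL library was 6.41-fold above the mean of the other two and higher than any Nelfb-/- library, while the first and second CTL libraries were below all 3 Nelfb-/- libraries. The means were 9.08 ± 10.2 CPM and 14.8 ± 3.67 CPM (SD, n = 3 each), a coefficient of variation of 112% in CTL and 24.9% in Nelfb-/- cells. The log2 fold change was 1.30 (SE 0.77, 95% interval -0.55 to 3.15, adjusted p = 0.296 by limma). Without the third CTL library it was 2.21 with an adjusted p of 0.015, a call, and without the second CTL library it was 0.62. The same library also had the highest fibroblast marker sum of its group, 16380 CPM against 4239 and 4926 CPM in the other CTL libraries and 7934 to 32500 CPM in Nelfb-/- cells. Of 7 fibroblast markers none was called by limma (0 with voom weights), where 11.2% of all genes were called. At an unadjusted p under 0.05 (limma) stood 3, all higher in Nelfb-/- cells, where 19.6% of all genes were higher. Of the 7, 6 had a log2 fold change above 0 (median 1.25), where 8867 of all 16251 genes did. Higher without overlap between groups was 1 (Pdgfra), where 22% of all genes were. By RT-qPCR the study reported lower Elovl6 mRNA in Nelfb-/- dermis. It also listed Elovl6 among the genes that retroviral Pparg restored in cultured Nelfb-/- cells. The point estimate here had the opposite direction to that reported for dermis, from other samples and another assay, and it was not called. The part of cell composition in the Elovl6 values was not tested.

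Elovl5, which acts on polyunsaturated chains of intermediate length, had the smallest difference of the family. It was at 78.7, 64.4 and 72.8 CPM in the CTL libraries, against 63.9, 74.2 and 79.3 CPM in Nelfb-/- libraries. The group ranges nearly coincided, with means of 71.9 ± 7.20 CPM and 72.4 ± 7.82 CPM (SD, n = 3 each). The log2 fold change was 0.0093 (SE 0.15, adjusted p = 0.97 by limma), and its 95% interval ran from 0.791-fold to 1.28-fold, the narrowest of the 7. The sign of so small a value depended on the scaling: it was -0.056 with median-of-ratios size factors and -0.029 after quantile normalization.

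Elovl2, the elongase that acts late in the synthesis of docosahexaenoic acid, rose from the floor of detection. It was at 0.135, 0 and 0.102 CPM in the CTL libraries, which is 3, 0 and 3 reads. The Nelfb-/- libraries had 0.853, 2.39 and 1.88 CPM, which is 18, 41 and 46 reads, all above every CTL library. Since all 3 CTL libraries were at or under the floor of 3 reads, levels in Nelfb-/- cells were set against that floor. Their mean was 13.6-fold the mean CTL floor of 0.126 CPM. Library by library this ratio was 6.78, 19.0 and 14.9. The ratios carry no counting error, and the lower end of the limma 95% interval was 4.78-fold. The fitted log2 fold change was 3.93 (SE 0.70, 95% interval 2.26 to 5.60, adjusted p = 0.016 by limma), a size that depends on the pseudocount and was 1.28 with a pseudocount of 1 CPM. The call was lost without the second (adjusted p = 0.065) or the third (adjusted p = 0.082) Nelfb-/- library, each time with the same sign. Elovl2 passed the filter on low values only through the Nelfb-/- libraries.

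Markers of other cell types were read beside Elovl2, and most of these lists were higher in the Nelfb-/- libraries. Of all genes tested, 7.58% rose and 11.2% were called in either direction. All 5 melanocyte markers rose (summed 1.22 to 1.43 CPM in CTL, against 30.3 to 72.1 CPM in Nelfb-/- cells), and Tyr, Tyrp1 and Mlana were at or under the floor in every CTL library. These 3 markers, and also Dct, Krt5, Krt14 and Myog, passed the filter on low values only through the Nelfb-/- libraries, so that counts which include them are a description and no support. Macrophage markers rose for 6 of 7, and for 5 with voom weights (88.8 to 317.5 CPM and 681.6 to 1960 CPM), Schwann cell markers for 2 of 4 tested (123.4 to 316.6 CPM and 372.7 to 458.4 CPM) and skeletal muscle markers for 3 of 3 tested (6.58 to 8.98 CPM and 33.3 to 47.2 CPM). Keratinocyte markers rose for 2 of 5 tested, and for 0 with voom weights (3.29 to 3.55 CPM and 7.92 to 19.3 CPM), and of 4 endothelial markers none was called (limma, 1 at an unadjusted p under 0.05, 1 called with voom weights, 6.70 to 10.2 CPM and 6.81 to 18.5 CPM). The part of any of these cells in the Elovl2 signal was not tested.

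**Figure D2:**
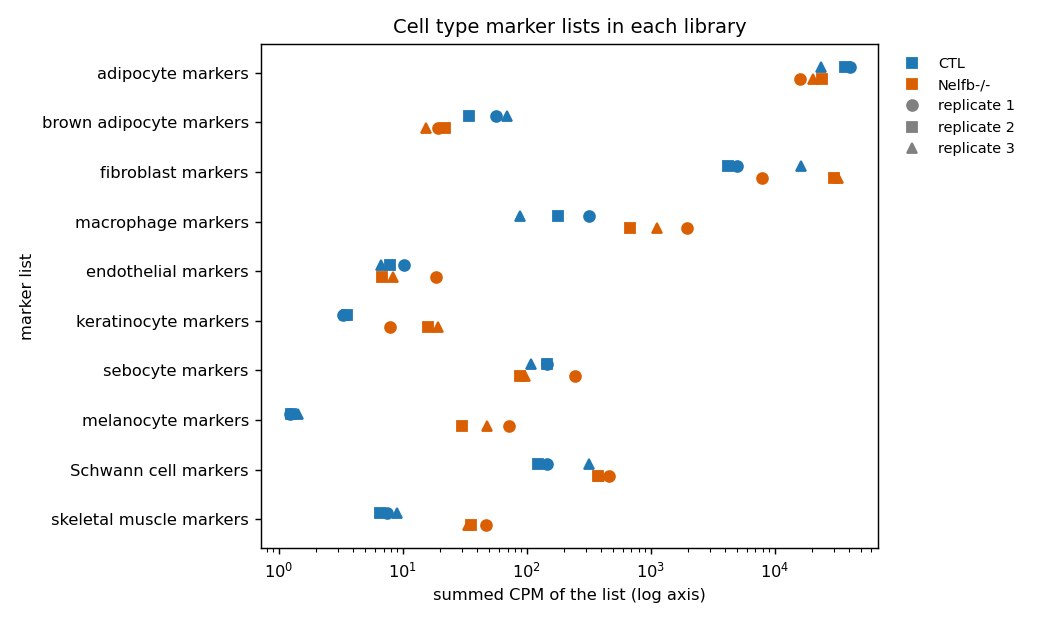
Summed CPM of each cell type marker list on a log axis, with 1 point per library, CTL in blue and Nelfb-/- in orange. Macrophage, melanocyte, keratinocyte, Schwann cell and skeletal muscle sums were higher in every Nelfb-/- library than in any CTL library, brown adipocyte sums were lower, and adipocyte, fibroblast, endothelial and sebocyte sums overlapped.

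**Figure D3:**
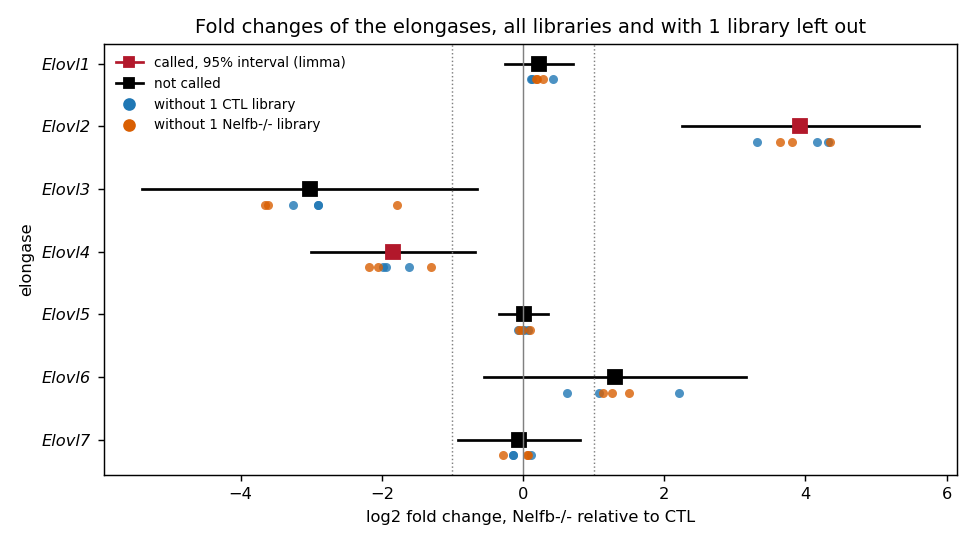
Squares give each elongase's log2 fold change of Nelfb-/- relative to CTL with its 95% interval (limma, 3 libraries a group), red where called, and small points give the value with 1 library left out. Elovl2 and Elovl4 were called, the Elovl3 value moved from -3.02 to -1.79 without the first Nelfb-/- library, and the Elovl6 value ranged from 0.62 to 2.21 depending on the library left out.

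Levels of different elongases were compared per kb of merged exons. In CTL cells Elovl5 (20.4 ± 2.05 CPM per kb), Elovl1 (19.2 ± 5.05) and Elovl3 (18.7 ± 4.93) were highest, and their ranges overlapped, so the order among them is not resolved. Elovl4 followed at 7.69 ± 2.30, Elovl6 at 1.41 ± 1.58, Elovl7 at 0.269 ± 0.060 and Elovl2 at 0.020 CPM per kb (SD, n = 3 each), each with a range apart from its neighbour's in the order. In Nelfb-/- cells Elovl1 (22.0 ± 1.54) and Elovl5 (20.6 ± 2.22) were highest with overlapping ranges. Elovl3 (3.64 ± 2.82), Elovl4 (2.35 ± 1.22) and Elovl6 (2.29 ± 0.571) came next and overlapped one another in turn, and Elovl2 (0.430 ± 0.197) overlapped Elovl7 (0.262 ± 0.081). Elovl3 kept its rank in CTL cells with either length, but its overlap with Elovl1 and Elovl5 depended on the length used. Per kb of the longest annotated transcript its CTL range, 13.7 to 22.7 CPM per kb, lay below those of Elovl5 (23.1 to 28.3) and Elovl1 (24.4 to 37.7). With either length Elovl3 overlapped its next lower neighbour in Nelfb-/- cells, which was Elovl4 by merged exons and Elovl6 by the longest transcript.

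The make-up of the family's summed level per kb followed from these values and is given as a description. Elovl1 and Elovl5 together made up 57.2%, 63.5% and 56.3% of it in the CTL libraries and 91.7%, 78.6% and 79.8% in the Nelfb-/- libraries. Elovl3 and Elovl4 together made up 41.4%, 35.4% and 39.3% in CTL and 3.24%, 15.6% and 13.8% in Nelfb-/- libraries. The share of Elovl6 was 0.973%, 0.641% and 3.98% in CTL and 4.03%, 4.25% and 4.94% in Nelfb-/- libraries. The sum itself was 67.7, 54.3 and 81.3 CPM per kb in CTL, against 41.9, 55.7 and 57.1 CPM per kb in Nelfb-/- libraries. The shares of the Elovl1 and Elovl5 pair and of the Elovl3 and Elovl4 pair did not overlap between groups, whereas the sums did.

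**Figure D4:**
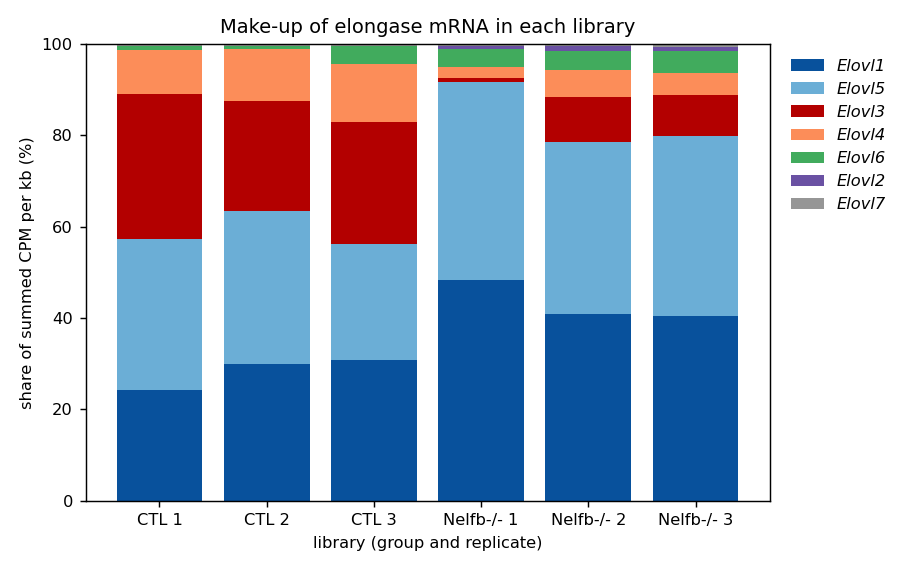
Stacked bars show, for each library, the share (%) of each elongase in the family's summed CPM per kb of merged exons. Elovl3 and Elovl4 (red and orange) made up 35.4% to 41.4% in the CTL libraries and 3.24% to 15.6% in the Nelfb-/- libraries.

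Ratios within a library do not depend on the scaling between libraries. The log2 ratio of Elovl3 to Elovl1 was -0.51 ± 0.38 in CTL and -3.76 ± 2.03 in Nelfb-/- cells (SD, n = 3 each), a difference of -3.25 with no overlap, and of -2.07 without the first Nelfb-/- library. Its exact two-sided permutation p was 0.1, the smallest that 3 libraries against 3 allow, and 0.4 after Benjamini-Hochberg adjustment over the 4 ratios computed. The log2 ratios of Elovl6 to Elovl5, of Elovl6 to Elovl1 and of Elovl5 to Elovl1 differed by 1.289, 1.075 and -0.21 (exact permutation p = 0.4 and adjusted p = 0.4 each). Without the third CTL library these 3 differences were 2.19, 1.78 and -0.41, and without the second CTL library 0.68, 0.50 and -0.19. Without the first CTL library the last of them was -0.048.

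Patterns across the 6 libraries were compared by the root mean square difference of log2 values after centring each gene on its own mean, where 0 is an identical pattern. Among the members Elovl1 and Elovl5 had the smallest difference (0.240), followed by Elovl1 with Elovl7 (0.249) and Elovl5 with Elovl7 (0.2504). The measure is small for any pair of genes that vary little, so these values do not by themselves show a shared pattern. Elovl3 was nearest to Elovl4 (0.935), and Elovl2 and Elovl3 were farthest apart (3.59). Outside the family the most similar pattern was that of Diablo for Elovl1 (0.028), Fam222a for Elovl2 (0.149), Ripply3 for Elovl3 (0.301) and Shank3 for Elovl4 (0.203). It was Slc35b1 for Elovl5 (0.029), Pi15 for Elovl6 (0.193) and Gm5165 for Elovl7 (0.061). Next in likeness were Dnal4 and Unc50 for Elovl1, Pnliprp2 and Slc44a5 for Elovl2, Hcar1 and Gm49377 for Elovl3, and Zfpm2 and Mif-ps for Elovl4. For Elovl5 they were Dffa and Irgq, for Elovl6 Cenpp and Lipg, and for Elovl7 Lmln and Plekhg2. The 6 points share their libraries and hence their depth and cell make-up. Of the 14 nearest tested protein-coding neighbours on the chromosome, none was called (limma, 1 at an unadjusted p under 0.05, 0 with voom weights), where 11.2% of all genes were called and 32.5% had such a p.

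Genes that act with the elongases were read from lists of the same pathway. The elongation cycle is completed by the ketoacyl-CoA reductase Hsd17b12, the hydroxyacyl-CoA dehydratases Hacd1 to Hacd4 and the enoyl-CoA reductase Tecr. Of the 6 tested, 1 rose and 1 fell, where 7.58% and 3.64% of all genes did, and the median log2 fold change was 0.030 beside 0.068 over all genes. Hacd2 was at 188.5, 189.9 and 95.01 CPM in the CTL libraries, against 36.2, 39.1 and 33.0 CPM in Nelfb-/- libraries, with no overlap (log2 fold change -2.06, SE 0.29, adjusted p = 0.0085 by limma). Hacd4 was at 20.5, 14.0 and 21.1 CPM in the CTL libraries, against 62.8, 33.4 and 43.6 CPM in Nelfb-/- libraries, also with no overlap (log2 fold change 1.31, SE 0.28, adjusted p = 0.027 by limma). Both calls were lost without the third Nelfb-/- library, and that of Hacd4 also without the first or the second CTL library. The log2 fold changes of Hacd3 (0.26), Hacd1 (-0.21), Hsd17b12 (0.082) and Tecr (-0.022) were small and not called. The summed level of the list overlapped between the groups, at 604.5 to 636.1 CPM in CTL, against 460.1 to 642.1 CPM in Nelfb-/- cells. Tecrl was not analysed here.

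Of 9 genes that supply malonyl-CoA and palmitate, 1 rose, a share near the 7.58% of all genes that rose, and the median log2 fold change was 0.055. Acly, which makes cytosolic acetyl-CoA from citrate, was at 131.3, 124.8 and 435.6 CPM in the CTL libraries, against 529.0, 1914 and 1642 CPM in Nelfb-/- libraries (log2 fold change 2.62, SE 0.66, adjusted p = 0.044 by limma). The groups did not overlap, and as with Elovl6 the third CTL library was the highest of its group. The call was kept in 11 of 17 alternatives and lost without the first or second CTL library and without either the second or the third Nelfb-/- library. Acaca, the carboxylase that makes malonyl-CoA (log2 fold change 0.85, adjusted p = 0.038), and Mlycd, the decarboxylase that breaks it down (-0.79, adjusted p = 0.044), passed the p limit in limma but not the 2-fold limit. Acacb (-0.97, adjusted p = 0.33) and Thrsp (-0.75, adjusted p = 0.17) were not called. Fasn, the source of palmitate, is named for its role after its values were seen. Its log2 fold change was 0.27 (SE 0.39, adjusted p = 0.68 by limma).

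Desaturases place double bonds in the chains that elongases extend, and 3 of the 7 fell, where 3.64% of all genes did, while none rose (median log2 fold change -0.72). Scd1, the main stearoyl-CoA desaturase of fat, was at 28090, 26180 and 20550 CPM in the CTL libraries, against 5387, 4948 and 4177 CPM in Nelfb-/- libraries (log2 fold change -2.36, SE 0.47, adjusted p = 0.021 by limma). Scd2 (-2.32, adjusted p = 0.016 by limma) and Scd4 (-2.25, adjusted p = 0.035 by limma) were lower by similar amounts and without overlap between groups. Scd4 passed the filter on low values only through the CTL libraries, so the count that includes it is a description and no support. All 3 desaturase calls were lost without the first CTL library or without the third Nelfb-/- library. Those of Scd1 and Scd4 were also lost without the second CTL or the second Nelfb-/- library. Scd3 (-0.72), Fads2 (-0.64), Fads1 (-0.49) and Fads3 (0.00033) were not called. Scd1 acts on the stearate that Elovl6 makes, and its groups separated where those of Elovl6 overlapped.

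Long-chain acyl-CoA synthetases activate fatty acids before elongation. None of the 7 tested was called (limma, 3 at an unadjusted p under 0.05, all higher in Nelfb-/- cells, 0 with voom weights), with a median log2 fold change of 0.56. Over all genes 11.2% were called, and 19.6% were higher at such a p. Their largest values were 1.24 for Slc27a3 (adjusted p = 0.24), 0.70 for Acsl5 (0.073), 0.65 for Acsl3 (0.102) and 0.56 for Acsl4 (0.081). Ceramide synthases, which use very long acyl-CoAs, had no call among 5 tested (limma, 2 at an unadjusted p under 0.05, 0 with voom weights). With 11.2% of all genes called and 32.5% at such a p, these counts of so short a list do not set it apart. Of the 5, 4 had a log2 fold change above 0 (median 0.32), where 8867 of all 16251 genes did. Without overlap between groups, 1 was higher (Cers6) and 1 lower (Cers1), where 22% and 16.1% of all genes were. The summed level of the list did not overlap, at 216.9 to 274.7 CPM in CTL, against 298.7 to 350.4 CPM in Nelfb-/- cells. Cers2 made up the largest part of that sum, and its own groups overlapped, with 162.5 CPM in the second CTL library and 160.8 CPM in the third Nelfb-/- library. Cers1 had a log2 fold change of -0.84 (adjusted p = 0.071), Cers6 of 0.71 (0.059), Cers5 of 0.42 (0.198) and Cers2 of 0.32 (0.262). Slc27a2 and Cers3 were not analysed here.

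A list of regulators of elongase genes held transcription factors of the SREBP, ChREBP, LXR and PPAR families and the proteins Scap, Insig1 and Insig2, which escort or retain SREBP in the endoplasmic reticulum. Its median log2 fold change was -0.15, and it had no call among 11 tested (limma, 5 at an unadjusted p under 0.05, 0 with voom weights), where 11.2% of all genes were called and 32.5% had such a p. Of those 5, the transcription factors Ppara, Nr1h2, Nr1h3 and Pparg were lower in Nelfb-/- cells and Scap was higher. Ppara had a log2 fold change of -1.10 (adjusted p = 0.067), Nr1h2 of -0.74 (0.082), Nr1h3 of -0.57 (0.041, under the 2-fold limit) and Pparg of -0.51 (0.11). Srebf1, named for its role after its values were seen, was at 168.1, 140.7 and 312.3 CPM in the CTL libraries, against 97.2, 369.2 and 309.0 CPM in Nelfb-/- libraries. Its groups overlapped (log2 fold change 0.20, SE 0.56, adjusted p = 0.84 by limma).

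**Figure D5:**
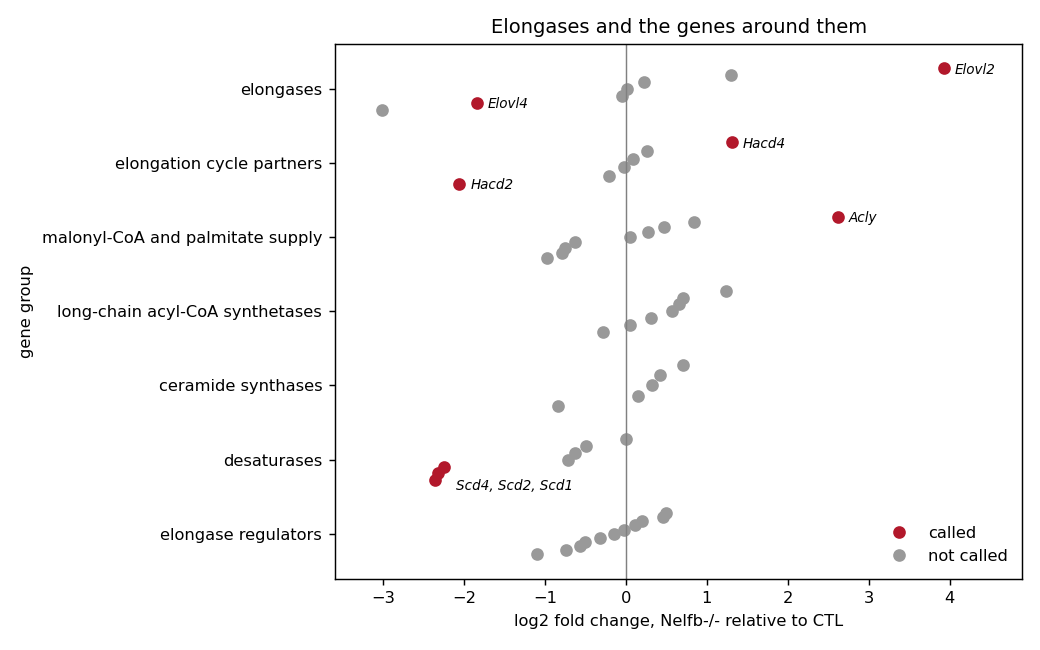
Each point is the log2 fold change of 1 tested gene, Nelfb-/- relative to CTL, by gene group, with called genes in red and named. Calls went both ways among the elongases and their cycle partners, were downward for 3 of 7 desaturases, and were absent among synthetases, ceramide synthases and regulators.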

How the data were processed

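RNA was measured in 6 libraries, 3 CTL and 3 Nelfb-/- (KO), grouped by the genotype label. The authors deposited CPM values per gene, each column adding up to 1000000 after a constant of 0.0001 is subtracted. The submitters' processing notes name STAR 2.7, Partek 9.0.20.0202 and mm10, and the study's methods name DESeq2 with default settings, a minimum of 10 reads and ANOVA in Partek. How reads were counted, and whether by strand, is not given in the sources used here. CPM hide depth, which was recovered from the step between low values. Only 69.7% to 72.6% of values up to 20 reads were whole (within 0.02 reads), so no count test was run. CPM times a common depth of 22.3 M reads gave read-like units. limma 3.58.1 (R 4.3.3) was fitted to log2(units + 1) with an abundance trend, without replicate blocks, over genes with a mean of at least 10 units (0.448 CPM), and p-values were adjusted by Benjamini-Hochberg over all of them. Fold changes are on this scale, which understates those of low genes. Called means an adjusted p of at most 0.05 and at least 2-fold, the study's limits. The 95% intervals are from limma and cover the spread between libraries. The floor of 3 reads is a fixed cut-off and carries no interval. Ratios were tested by exact two-sided permutation. Gene lengths and coordinates are from GENCODE vM21 (GRCm38), matched by name to 17551 genes.

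The members and lists were chosen with earlier results of these data known. Named genes are the members, Nelfb, the called and up to 4 further genes of each list with the largest absolute fold change, and the 3 most alike genes per member. Alternatives were other pseudocounts, filters, scalings, variance models, a replicate block and leaving out each library. Protein sequences were not analysed here. Replicates are called biological by the study. If they were not separate animals or cultures, p-values measure technical spread.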

Additional observations from a re-analysis of the deposited data

How the results depend on the processing

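The fit was repeated under 17 alternatives, 15 planned and 2 chosen after seeing the data (a pseudocount of 1 CPM and voom weights). Elovl1, Elovl2, Elovl3, Elovl4 and Elovl6 kept their direction in all 17. Elovl4 (log2 fold change -1.85) lost its call in 7 of the 17, among them limma without the trend (adjusted p = 0.064) and with robust empirical Bayes (0.051), leaving 1 elongase called in each. Elovl5 turned to -0.056 with median-of-ratios size factors and -0.029 after quantile normalization. Leaving out 1 library at a time gave log2 fold changes of 0.12 to 0.43 for Elovl1, 3.31 to 4.35 for Elovl2, -3.66 to -1.79 for Elovl3, -2.18 to -1.30 for Elovl4, -0.068 to 0.097 for Elovl5, 0.62 to 2.21 for Elovl6 and -0.29 to 0.12 for Elovl7. Over the same 6 fits, 0 to 3 elongases, 0 to 2 cycle partners, 0 to 2 malonyl-CoA and palmitate genes, 0 to 3 desaturases and 426 to 2480 of all genes were called. The all-gene count was 871 without CTL replicate 1 and 759 without CTL replicate 2, and 945 without Nelfb-/- replicate 2 and 426 without Nelfb-/- replicate 3. The malonyl-CoA and palmitate list had 0 calls without the trend and with voom weights. Quantile normalization called 1 ceramide synthase and 1 regulator, both lower in Nelfb-/- cells. It split all calls into 1014 higher and 834 lower, where the reported fit has 1232 and 592, and moved the all-gene median from 0.068 to -0.068. With the longest annotated transcript as the length, 10 of 14 places in the order of levels were kept. The cause of these changes was not tested.

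A replicate block called 2175 genes and the same elongases, with adjusted p of 0.023 for Elovl2, 0.024 for Elovl4, 0.057 for Elovl3 and 0.15 for Elovl6, and changed no other elongase call. The numbers were not taken as pairs, since deviations from the group means correlated at 0.52, -0.39 and 0.52 for replicates 1, 2 and 3, and not every library correlated best with its own number.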
